A study of Mus musculus with 19 samples.

Results

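The homozygous missense calls in the exome of A223, a mouse squamous cell carcinoma line grown in culture, were examined here. A member was a position of the deposited variant table whose annotated effect included a missense change and whose exome genotype was 1/1, meaning that only the non-reference base was called. This gave 2895 members of 564674 rows in the table, and they lay in 1041 genes on 19 chromosomes. They made up 35.8% of the 8079 missense calls of the exome (exact 95% interval 34.8% to 36.9%) and 2.31% of its 125518 homozygous calls of any class. The other missense calls were 5179 heterozygous calls (0/1) and 5 calls with different non-reference bases on the copies (1/2).

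The series set T cells of tumour-bearing mice beside the tumour cells themselves. Only the tumour cells are described here, as 1 exome library of their DNA and 1 library of their polyA RNA, and the 9 expression and 8 receptor libraries of T cells were not used here. Both libraries came from A223 cells kept in vitro, with strain given in the labels as C57BL/6-derived, and no treatment, genotype or animal age was given. A223 is a single line, no normal tissue of the same mouse was analysed here, and neither library had a replicate, so no difference below has a replicate check and intervals cover counting error only.

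A missense variant replaces 1 amino acid of a protein by another, whereas a synonymous variant changes the codon and leaves the residue as it was. Inbred mouse strains are homozygous at nearly every position, so a stretch of chromosome inherited from another strain carries many homozygous differences from the reference genome, which is that of C57BL/6J. A homozygous call in tumour cells can also arise where 1 chromosome copy has been lost. Most amino acid differences between strains are tolerated, and genes of defence, reproduction and chemical sensing are known to differ most.

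Some members lay close enough to an annotated transcript start, of their own or of another gene, for the surrounding bases to be read from RefSeq (GRCm38.p6). For the Peak1 member the start was that of Peak1os, and for the Akap9 member that of Gm40260. The 5 sequences below are shown because they give the altered codon, in capitals and on the coding strand, of members read in RNA, of a codon changed at 2 bases, and of the 1 such member called heterozygous in RNA.
Peak1 Leu1085Ser, chr9:56241194-56241220, minus strand: aaagatgacactTTGgatcctactgac
Akap9 Gln3693Glu, chr5:4077218-4077244, plus strand: cctggtgggctgCAGctctatggagaa
Ndufs6 Val4Ala, chr13:73328433-73328449, minus strand: aagatggcggcgGTGct
Col20a1 Gln8Leu and Gln8His, chr2:180986544-180986570, plus strand: caaggctcctacCAAcacttctgcctc
Pts Asp6Gly, chr9:50528607-50528633, minus strand: agcgcggcgggtGACcttcgtcgccgc

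In Peak1, a pseudokinase of the cytoskeleton, the member turned TTG into TCG, and 245 RNA reads covered it with the genotype 1/1. In Akap9, a scaffold that ties protein kinase A to the Golgi and centrosome, CAG became GAG at 53 reads, also 1/1 in RNA. In Ndufs6, a subunit of mitochondrial complex I, GTG became GCG just behind the start codon, at 53 reads and 1/1. Col20a1, a collagen gene, had a member at the second and another at the third base of CAA, annotated as Gln8Leu and Gln8His. Read together they gave CTC, which codes for leucine, and both were 1/1 at 52 RNA reads. Pts makes an enzyme of tetrahydrobiopterin synthesis, and its change of GAC to GGC was 1/1 in the exome but 0/1 in RNA at 23 reads. Of 37 members inside such start windows, 34 had the whole codon in the window and were not on chromosome 18, and in 34 of them the reference and altered codons gave the deposited residues.

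Members were unevenly spread over the chromosomes. Chromosome 7 held 666 members, or 23.01% of all, followed by chromosome 8 with 426 and chromosome 4 with 404, and these 3 chromosomes together held 51.7%. Chromosomes 6 and 13 held 277 and 262, and the first 5 chromosomes held 70.3% of members. Heterozygous missense calls were placed otherwise: chromosome 1 had 104 members and 617 heterozygous missense calls, and chromosome 11 had 32 members and 539 heterozygous ones. The share of missense calls that were homozygous was 96.4% on chromosome 12, where 80 members stood beside 3 heterozygous missense calls, 80.4% on chromosome 8 and 76.2% on chromosome 4. On chromosome 14 it was 0.761%, with 3 members and 391 heterozygous missense calls. Chromosome 19 had 0 members among 246 missense calls, which allows a share of up to 1.22%. Chromosome X held 19 members and chromosome 2 held 26, beside 38 and 28 heterozygous missense calls.

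**Figure D1:**
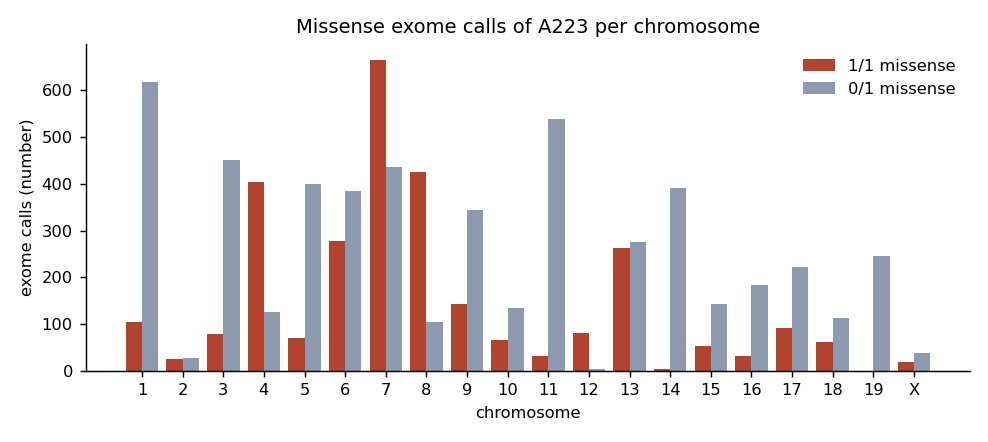
Number of missense exome calls of A223 on each chromosome (horizontal axis), with homozygous calls (1/1) left of heterozygous calls (0/1). Homozygous calls outnumbered heterozygous ones on chromosomes 4, 7, 8 and 12, and chromosome 19 had 0 homozygous calls.

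Along the chromosomes the members lay in runs. A block was defined as 5 or more members with neighbours at most 1 Mb apart, and 95 blocks on 18 chromosomes held 2662 members, or 92.0% (exact 95% interval 90.9% to 92.9%). The rule was not run on heterozygous missense calls, so the share is not shown to be particular to members. The median block spanned 0.915 Mb with 13 members, and the longest spanned 4.77 Mb. In 49 blocks the exome had 0 heterozygous missense or synonymous calls, together called coding calls here. Homozygous calls were over 50% of coding calls in 85 blocks, and heterozygous calls outnumbered them in 10. Over all blocks 80.9% of coding calls were homozygous. Blocks were defined by their homozygous members, which are counted here, so these block counts follow in part from the definition. In the whole exome 2895 missense and 4904 synonymous calls were homozygous, and 5179 missense and 7855 synonymous calls were heterozygous. The median distance between neighbouring members was 2433 bp, and 44.2% of members had another within 100 bp, against 52.5% of heterozygous missense calls with another of their kind.

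The 6 blocks with the most members held 1073 of them, or 37.1%. The largest, at chr7:42820050-47589821 in the deposited coordinates, had 258 members in 78 genes, and its coding calls were 762 homozygous and 64 heterozygous. It holds the glandular kallikreins, of which Klk1b16 had the most members of the block at 18, and its most deeply read member was in Emp3, an epithelial membrane protein, at 925 RNA reads. The block at chr4:111806006-115601116 had 230 members in only 21 genes, led by Skint5 with 75, and its deepest member was in Cmpk1, a nucleotide kinase, at 122 reads. At chr7:16672114-21053660, 196 members lay in 58 genes, with 12 in Ceacam20, a cell adhesion gene, and the deepest in Vasp, an actin regulator, at 199 reads.

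Zinc finger genes marked the block at chr7:23320459-24780930, with 141 members in 29 genes, 16 of them in Zfp112. Its deepest member was in Plaur, the urokinase receptor, at 104 reads. The block at chr6:128365822-131230148 covers the natural killer receptor cluster and had 125 members in 25 genes, 18 of them in Klra6. It was the most mixed of the 6, with 198 homozygous and 179 heterozygous coding calls, and its deepest member was in Klra4 at 262 reads. The sixth, at chr4:143135722-145293120, had 123 members in 23 genes, led by Gm13089 with 16, and the deepest was in Prdm2, a histone methyltransferase, at 98 reads.

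Of 4304 genes with a missense or synonymous exome call, 1041 held a member, a background share of 24.2%. Among those genes 548 had 1 member, 184 had 2, 153 had 3 or 4, 108 had 5 to 9, and 48 had 10 or more. The 48 genes of the last class held 761 members. In 869 of the member genes, or 83.5%, the exome had 0 heterozygous coding calls, and these genes held 75.2% of members. The same share over all 4304 genes was not taken, so it is not shown to be particular to member genes.

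The 10 genes with the most members held 293, or 10.1%. Skint5 had 75 members over 1475 residues, which is 5.08 per 100 residues, and Skint6 had 62 over 1240 residues, or 5 per 100. Skint genes encode immunoglobulin-like membrane proteins of epithelium, and Skint1 is the member known to select epidermal gamma delta T cells in mice. Cmya5, a large protein of striated muscle, had 36 members but only 0.979 per 100 residues of its 3676. Klk1b16 had the densest run of these genes, with 18 members in 261 residues, or 6.90 per 100. Klra6, a Ly49-type natural killer receptor, had 18 in 266 residues, or 6.77 per 100, and its exome calls also included 13 heterozygous coding ones. Akap6, BC048546, Skint8 and Zfp457 had 17 each. Gm13089, Speer3 and Zfp112 tied at 16, and Speer3, of a testis-specific family, had 6.13 members per 100 residues.

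**Figure D2:**
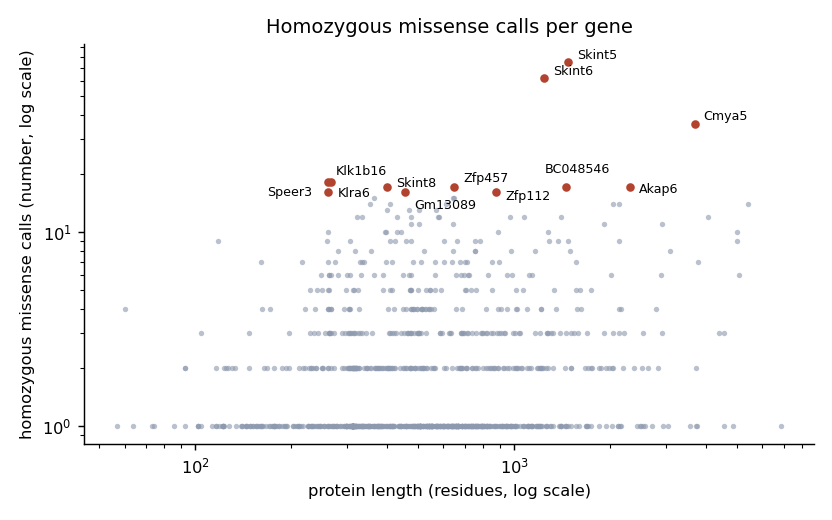
Homozygous missense calls per gene (vertical, log scale) against the length of the annotated protein in residues (horizontal, log scale), 1 point for each of 1041 genes. Genes with 16 or more calls are named, and Skint5 with 75 and Skint6 with 62 stand above all others.

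Gene families, grouped by symbol after the values were seen, differed in how their missense calls were split. Over all missense exome calls 35.8% were homozygous. The 8 Skint genes held 212 members, or 7.32% of all, beside 12 heterozygous missense calls, and the most RNA reads at any of these members was 4. Kallikreins of the Klk1b group had 68 members in 12 genes beside 5 heterozygous calls, and Ceacam adhesion genes had 41 in 11 genes beside 0. The pregnancy-specific glycoproteins, Psg, had 69 members in 11 genes beside 25. Olfactory receptors went the other way, with 67 members in 43 genes beside 420 heterozygous missense calls, as did vomeronasal receptors with 43 members in 15 genes beside 207. The Nlrp genes had 20 members in 4 genes, Nlrp4e, Nlrp5, Nlrp4f and Nlrp9b, beside 188 heterozygous missense calls in the whole family. Klra genes had 61 members beside 112 heterozygous missense calls, and Cyp genes 33 beside 84. The Skint members lay in the block led by Skint5, where 94.1% of coding calls were homozygous. Klk1b members lay in the largest block, with 92.3%, and Psg and most Ceacam members in the block led by Ceacam20, with 92.0%. Whether the split went with the family or with its place was not tested. Every Olfr, Vmn, Klk1b, Psg and Ceacam member had 0 RNA reads. Members of such families lie in near-identical copies, where short reads can be placed in the wrong gene, so their counts are uncertain.

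Base changes were folded so that the reference base is a pyrimidine. Transitions made up 60.7% of members (exact 95% interval 58.8% to 62.4%), against 61.9% of heterozygous missense calls and 82.7% of homozygous synonymous calls. T-to-C changes were the most frequent among members at 31.6%, followed by C-to-T at 29.1%. In heterozygous missense calls the order was the reverse, with 28.6% T-to-C and 33.3% C-to-T. The intervals of the C-to-T share did not overlap, 27.4% to 30.8% for members and 32.0% to 34.6% for heterozygous missense calls. They count each call as independent, although neighbouring calls cannot be taken so. Members fell at the first base of the codon in 46.6%, at the second in 44.9% and at the third in 8.57%.

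The amino acid changes covered 149 ordered pairs of residues. The most frequent was Thr to Ala with 102 members, and its reverse, Ala to Thr, had 85. Ile to Val had 77 and Val to Ile 70, Val to Ala 72 and Ala to Val 53, and Ser to Pro 56 and Pro to Ser 39. Each of these changes was met by its reverse, which had from 39 to 102 members. Arginine was lost by 243 members and gained by 191, and tyrosine was lost by 73 and gained by 47. Histidine was gained by 120 and lost by 88, and alanine gained by 251 and lost by 216. Cysteine, lost by 48 and gained by 49, and proline, lost and gained by 148 each, were balanced.

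**Figure D3:**
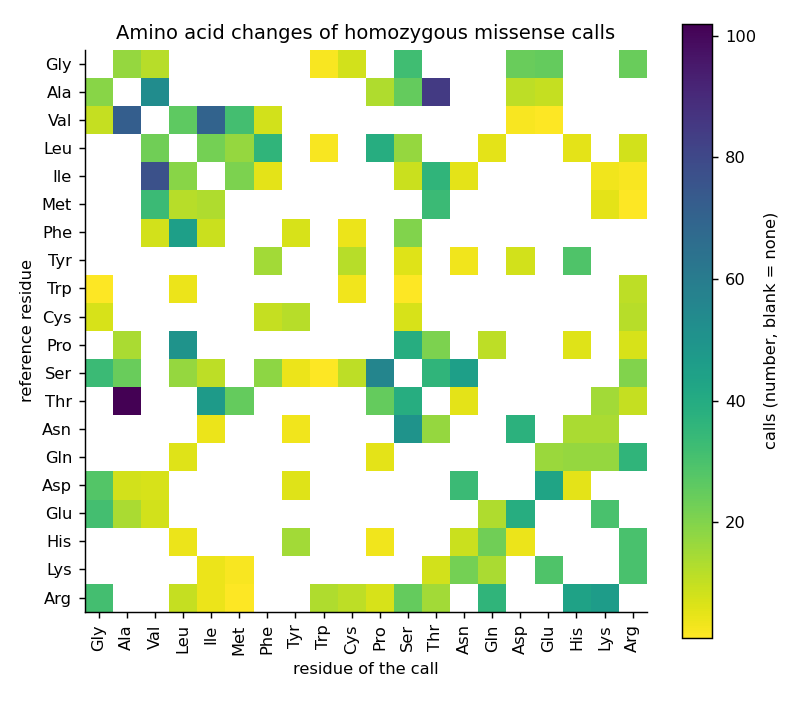
Number of homozygous missense calls for each reference residue (rows) and residue of the call (columns), with the count in colour and blank cells for pairs without a call. The darkest cells are Thr to Ala with 102 calls, Ala to Thr with 85 and Ile to Val with 77.

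BLOSUM62 scores a pair of residues by how often they replace each other in related proteins, and a score below 0 marks an unusual exchange. Of the members 38.8% scored below 0 (exact 95% interval 37.0% to 40.6%), against 37.8% of heterozygous missense calls (36.5% to 39.1%). Scores of -3 or lower were found in 7.91% of members and 8.13% of heterozygous missense calls, and the charge changed in 28.0% of members and 29.3% of heterozygous missense calls. At positions with 20 or more RNA reads the share of members below 0 was 34.4% (30.5% to 38.4%), and at positions with 0 reads it was 39.3% (36.9% to 41.6%), intervals that overlap. Of heterozygous missense calls 38.2% scored below 0 at 20 or more reads and 38.6% at 0 reads. Members lay in the first 10% of the protein in 9.84% of cases and in the last 10% in 11.9%, against 8.42% and 10.7% of homozygous synonymous calls. Heterozygous missense calls had 9.81% in the first 10% and 11.2% in the last 10%.

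Members with an exchange scored -3 or lower were also found in expressed genes, 36 of them at 20 or more RNA reads. The most deeply read was Trp296Arg of Adam9, a membrane metalloprotease, at 210 reads, followed by Val571Gly of Emilin2, an elastic fibre protein, at 196. Sugp1, a splicing factor, had Pro326Leu at 149 reads. Dynap had Asp158Tyr at 133 reads. Pvr, the poliovirus receptor homologue and a ligand of natural killer and T cell receptors, had Ser111Trp at 127. Cmpk1 had Arg25Trp at 122 reads and A130051J06Rik had Arg40Cys at 109. Plaur had Trp321Arg at 104, Cdh26, a cadherin, had Arg434Trp at 83, and the last place was shared by Asp67Val of Lrpprc, a mitochondrial RNA-binding protein, and Val93Gly of Miip, each at 69. All 11 of these were called 1/1 in RNA.

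Each call was annotated alone, although 157 members (5.42%) shared their codon with another homozygous coding call. These members lay in 107 codons, 50 with 2 missense calls and 57 with a missense and a synonymous call. When the calls of a codon were put together, 59 codons gave one of the annotated residues and 45 gave a residue that neither annotation named. In 1 codon, Arg436 of 4833420G17Rik, the joint reading restored the reference residue although a member was annotated as Arg436Ser, and 2 codons had more than 1 reading. The most deeply read codon with an unannotated residue was Glu32 of Klra4, annotated as Gly and as Gln and jointly Arg, at 141 RNA reads. Klra4 also had 45 heterozygous coding calls in the exome, and misplaced reads among Klra genes were not tested. Val172 of Emilin2, annotated as Ala and as Ile, was jointly Thr at 105 reads. Gln69 of Mill2, an MHC class I-like gene, was jointly Gly at 41 reads, Gly384 of the kinase Prkd1 jointly Asp at 37, and Arg535 of Podnl1 jointly Ala at 20. Both calls of each of these codons were 1/1 in RNA. The joint reading takes both calls as lying on the same copies, as 1/1 calls do.

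The number of missense calls per synonymous call compares changes that alter the protein with those that do not. Among homozygous calls 2895 missense and 4904 synonymous calls gave 0.590 (exact 95% interval 0.564 to 0.618), and among heterozygous calls 5179 and 7855 gave 0.659 (0.636 to 0.683). The intervals did not overlap, but neighbouring calls of a block cannot be taken as independent, so no p is given. Of 16 chromosomes with 50 or more coding calls of each genotype, the homozygous ratio was the lower on 11 and the higher on 5. Counting at most 1 missense and 1 synonymous call per gene, the ratios were 0.726 for homozygous and 0.723 for heterozygous calls, so the order did not hold in that count.

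The ratio was lower at positions with 20 or more RNA reads than at positions with none, for both genotypes. At 0 reads it was 0.762 (0.715 to 0.812) for homozygous and 0.768 (0.732 to 0.805) for heterozygous calls. At 20 or more reads it was 0.380 (0.345 to 0.419) for homozygous and 0.501 (0.468 to 0.536) for heterozygous calls. At 20 to 49 reads the homozygous ratio was 0.412 and the heterozygous one 0.568. At 50 to 99 reads they were 0.347 for homozygous and 0.515 for heterozygous calls. The intervals did not overlap in either bin, but they too count neighbouring calls as independent. At 100 or more reads the homozygous ratio was 0.358 and the heterozygous one 0.391, with overlapping intervals.

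**Figure D4:**
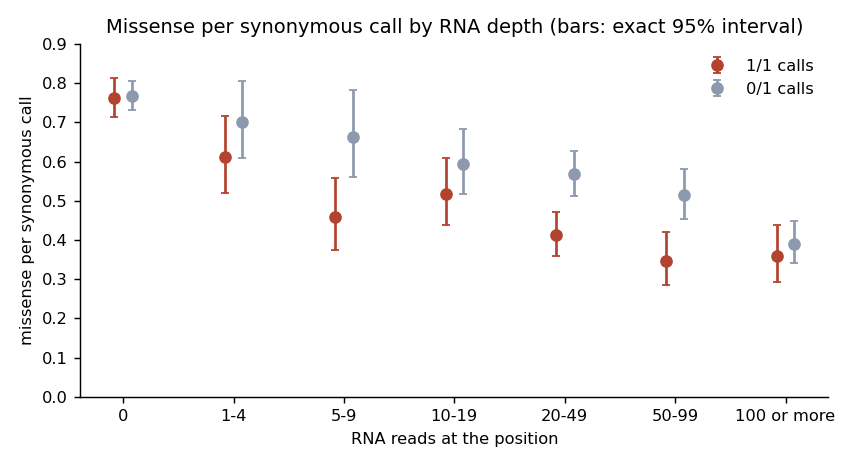
Missense calls per synonymous call (vertical) by RNA reads at the position (horizontal), for homozygous calls (left of each pair) and heterozygous calls (right), with exact 95% intervals as bars. Both series are highest at 0 reads, 0.762 and 0.768, and the homozygous one lies at 0.358 at 100 or more reads.

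The ratio was not the same in all gene families. Skint genes had 212 missense and 63 synonymous homozygous calls, a ratio of 3.37 (2.53 to 4.53). Chromosome 4, which holds them, stood at 1.16, and at 0.674 without them. Vomeronasal receptors had 1.59 among homozygous and 1.67 among heterozygous calls. Olfactory receptors had 0.859 (0.610 to 1.21) among homozygous and 0.730 (0.643 to 0.830) among heterozygous calls. These olfactory intervals held the ratios of all calls at 0 RNA reads, 0.762 for homozygous and 0.768 for heterozygous calls. Zfp genes had 0.962 among homozygous and 0.964 among heterozygous calls. In each family the intervals of the 2 genotypes overlapped. Of the 6 blocks with the most members, the Skint block on chromosome 4 had 3.07 and the block at chr7:42820050-47589821, with 78 genes, had 0.512. The Klk1b kallikreins inside that block had 68 missense and 30 synonymous homozygous calls. The long block at chr8:68335091-72586015, with 91 members in 46 genes and 2 heterozygous coding calls, had 0.358. Chromosome 12 had 0.333.

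RNA reads were absent at most members. Of 2895 members 1694, or 58.5%, had 0 RNA reads, against 57.5% of heterozygous missense calls and 45.3% of homozygous synonymous calls. A count of 0 allows up to 3 reads, so a 0 does not show that the gene was silent. The 1201 members with at least 1 read had a median of 18, and 573 members in 310 genes had 20 or more.

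Where RNA was deep enough, the RNA genotype was mostly that of the exome. At 1 to 4 reads 44.5% of members were called 1/1 in RNA, at 5 to 9 reads 85.6%, at 10 to 19 reads 86.7%, and at 20 to 49 reads 91.8%. The share was 95.9% at 50 to 99 reads and 92.6% at 100 or more. At 20 or more reads 533 of 573 members were 1/1, or 93.02% (exact 95% interval 90.62% to 94.97%). The background was 94.5% of the 2080 missense and synonymous homozygous calls, and 78% of the 5550 homozygous exome calls of any class, at the same depth. Homozygous synonymous calls alone had 95.02% (93.8% to 96.1%), an interval that overlaps that of the members. Of heterozygous missense calls at that depth 6.08% were 1/1 in RNA and 63.7% were 0/1.

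**Figure D5:**
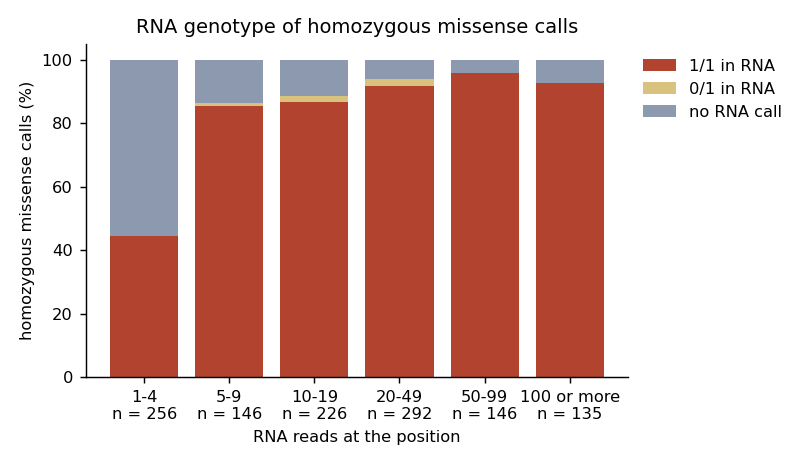
Share of homozygous missense calls (vertical, percent) called 1/1 in RNA, 0/1 in RNA or without an RNA call, by RNA reads at the position (horizontal, with the number of calls). The 1/1 share was 44.5% at 1 to 4 reads and 95.9% at 50 to 99 reads.

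The most deeply read members among those called 1/1 in RNA are given next. Ala40Thr of Shmt2, the mitochondrial serine hydroxymethyltransferase, at chr10:127521031 in exon 2 of 12, had 1266 reads. Ala190Gly of H1f0, a linker histone, had 1259. Thr154Ile of Emp3 had 925 reads and Gly240Ser of Lonp1, a mitochondrial protease, had 880. Ppp1r15a, the stress-induced phosphatase regulator known as GADD34, had 6 members, all in exons 2 and 3. Its reads were 657 at Val635Ala, 569 at Glu451Asp, 524 at Asp459Asn, 499 at Lys244Arg, 409 at Arg129His and 304 at Gly170Ala, and the members run between residues 129 and 635 of 657. Eps8, an actin regulator of growth factor signalling, had Asn652Asp at 423 reads. Dynap had Arg117Gly at 396 and Ser108Pro at 375, Txndc12 Gly6Arg at 363, and Ier2, an immediate early gene, Val46Leu at 326.

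Several genes carried long runs of members that could be followed in RNA, chosen here after their values were seen. All 14 members of Heatr5a at 20 or more reads were 1/1 in RNA, at 29 to 94 reads. Emilin2 had 11 of 12, at 56 to 196 reads, Srfbp1 and 4932438A13Rik 9 of 9 each, and Mill2 8 of 8 at 25 to 44. In all, 111 genes had 2 or more members at 20 or more reads, and in 97 of them every such member was 1/1 in RNA. Klra6 had 7 such members, of which 1 was 1/1 in RNA. Of all 310 genes with a member at 20 or more reads, 21 had no such member 1/1 in RNA, and each of these 21 had 1 such member.

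At 20 or more RNA reads 40 members were not 1/1 in RNA. Of these 34, or 5.93% of the 573, had no RNA call, and 6, or 1.05%, were 0/1. Reads per base were not used here, and a position without a call may show the reference base or a failed call. Of the 34 members without a call 29 had another homozygous exon call of the same gene at 20 or more reads, and for 26 of these at least 1 such call was 1/1 in RNA. In all, 10 members had 100 or more reads and no call, of 135 members at that depth. The deepest was Val856Ile of Clstn1, a neuronal calsyntenin, at 302 reads, and 4 of 4 other such calls of the gene were 1/1. Leu96Ile of Car6, a secreted carbonic anhydrase, had 273 reads, with 3 of 3 others 1/1.

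The next positions without a call differed in what surrounded them. Asp68Asn of Gm9830 had 251 reads and no other such call, and so had Ala294Thr of Lsm14b at 147. Asp2344Glu of Srrm2, a large splicing protein, had 210 reads, and 0 of 4 other calls of the gene were 1/1 in RNA. Leu56Phe of Klra3 at 137 reads had 4 of 4 others 1/1, and Val296Phe of Tm7sf3 at 118 had 11 of 12. Thr917Ala of Emilin2 at 104 reads had 21 of 21, Val1342Ile of Myo9b at 103 had 8 of 8, and Ala174Thr of Tsfm at 100 had 3 of 3. Below 100 reads came Stard13 Lys850Arg at 95, Xrcc1 Lys427Glu at 94 with 9 of 11 others 1/1, Ttc3 Pro1571Ser at 84, Cep120 Val2Ile at 66 and Fcgrt Tyr111Phe at 61. The members of Clstn1, Stard13 and Ttc3 were also annotated as lying in a splice region, as were 75 of all 2895 members. Its part in the missing RNA calls was not tested.

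Members called heterozygous in RNA were rare, 11 at any depth, with 6 to 40 reads. The 6 with 20 or more reads were Ala160Thr of Nop2, a nucleolar RNA methyltransferase, at 40, Gln212His of Haus4 at 39, Thr179Met of Hic1 at 23, the Pts change printed above at 23, Met660Val of Bdp1 at 21 and Arg74Cys of Tnip2 at 21. Haus4 also had 4 heterozygous coding calls in the exome, and Pts and Tnip2 had 1 each.

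Genes of tumour and immune biology were taken from 8 lists. In the antigen presentation list 2 of 5 genes with a coding exome call held members, 14 in all. Nlrc5, the transactivator of MHC class I genes, had 11, from 3 reads at Gly106Glu to 61 at Phe490Ser, and 10 of them were 1/1 in RNA. Tapbpl, a peptide editor of MHC class I, had 3 at 16 to 28 reads, all 1/1. In the interferon list 4 of 18 genes held 7 members. Irf2, an interferon regulatory factor, had Asp295Glu at 77 reads, the kinase Tyk2 had 3 members at 38 to 40 reads, and Oas2 had Gln232Arg at 18, all 1/1. Stat2 had Leu767Gln at 16 reads and Pro775Leu at 11, both without an RNA call.

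The DNA repair list had 41 members in 11 of 28 genes with a coding call. At 20 or more reads 14 of 17 were 1/1 in RNA, beside 533 of 573 over all members. Polk, a translesion polymerase, had 5 members at 32 to 104 reads, all 1/1. Xrcc1, the scaffold of single-strand break repair, had Val295Ile at 39 reads and His391Arg at 34, both 1/1, besides the position without a call. Wrn, the helicase of Werner syndrome, had 12 members at 4 to 36 reads, and 11 were 1/1. Slx4, a nuclease scaffold, had 5 members at 11 to 26 reads, Fanci of the Fanconi pathway had 5 at 0 to 24, and Pold1, the catalytic subunit of polymerase delta, had Asp744Asn at 33 reads. Msh3, of mismatch repair, had 4 members, Fancm and Fancb of the Fanconi pathway had 2 each, and the polymerase Poli and the excision repair gene Ercc8 had 1 each.

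The other 5 lists differed in how far their members were read in RNA. Over all members 58.5% had 0 RNA reads. In the squamous carcinoma list 2 of 12 genes, the atypical cadherins Fat4 and Fat3, held 12 members, all at 0 reads. Fat4 had 9 of them and Fat3 had 3. In the keratinocyte list 3 of 15 genes held 7, with 3 of Cdh1, the epithelial cadherin, at 0 reads, 2 of Klk5 at 0, and 2 of Ppl at 4 and 0. Innate sensing had 7 members in 4 of 13 genes, 4 of them at 0 reads beside 58.5% of all members, and its deepest was Pro273Leu of Ticam1, an adaptor of Toll-like receptors, at 14. Nod2, a sensor of bacterial cell wall, had 3 at 0 reads, and the Naip genes, sensors of bacterial flagellin and secretion proteins, had 2 in Naip2 at 2 and 3 reads and 1 in Naip5 at 0. Extracellular matrix and adhesion had 10 in 2 of 11 genes, Lama5 at 31 and 13 reads and Lama1 with 8 at 0. Cell cycle and mitosis had 4 in 3 of 16, none at 0 reads, with Gly574Asp of the condensin subunit Ncapd2 at 49 reads and Arg364Trp of the mitotic kinase Plk1 at 33.

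The share of genes with a member was 40% in the antigen presentation list, 39.3% in DNA repair, 30.8% in innate sensing, 22.2% in interferon, 20% in keratinocyte, 18.8% in cell cycle, 18.2% in matrix and 16.7% in squamous carcinoma, beside the 24.2% of all genes. RNA reads at called positions of the keratinocyte markers were few. Of 14 markers 5 had a called exon position, with Dsp at 0 reads in all 9 and Dsg3 at 0 in all 8. Col17a1 had at most 7 reads, Pkp1 had 2, and Itgb4 had 77, and the keratins and Trp63 had 0 called exon positions, so the label of a squamous line could be checked at few markers only. Cdh1, of the keratinocyte list, had 15 called exon positions, all at 0 reads. The T cell genes Cd3e and Cd8a had 0 reads, and the fibroblast genes Col1a1 and Col3a1 had up to 70 and 10. Their part in the unread keratinocyte members was not tested.

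The members at residue 358 of Fv1 and residue 169 of Slc11a1 sit where inbred strains are known to differ. For the other changes in this paragraph no known strain difference is given. All were chosen after their values were seen. Fv1, a restriction factor against murine leukaemia virus, is known in the forms n and b, and residue 358 is known to separate them, with Glu in the b form of C57BL/6 mice and Lys in the n form. In A223 Glu358Lys was homozygous in the exome and 1/1 in RNA at 44 reads. Ser352Phe of the same gene was 1/1 at 44 reads. Arg399Gly at 32 reads and Arg399Ile at 33 shared a codon whose joint reading was Val. Slc11a1, a metal transporter of phagocytes, is known to carry Asp at residue 169 in C57BL/6 and Gly in infection-resistant strains, and Asp169Gly was a member with 0 RNA reads, at chr1:74380211. Havcr2, which encodes the receptor TIM-3, had 8 members between residues 24 and 47, with at most 2 reads. Ifng had Leu142Ser with 0 reads.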

How the data were processed

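DNA and RNA of A223 cells were read as 1 exome and 1 RNA library. Per the submitters' processing notes, BWA and GATK were used; versions and the genome build are not given in the sources used here. The deposited table holds, per the file headers, the exome and RNA genotype and, for each position, the RNA depth as a count of reads without normalisation. Exome depth and reads per base were not used here. All 3148 called single-base positions within RefSeq start windows of GRCm38.p6 had that build's reference base (100%), and positions are printed as deposited.

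With Python 3.11.15, pandas 2.3.3 and scipy 1.17.1, calls were counted by effect, genotype and depth, and shares were given exact Clopper-Pearson 95% intervals. Intervals of ratios were converted from those of the missense share. BLOSUM62 came from Biopython 1.88. Calls of a codon were joined from the deposited codon and protein changes, after the step was tested on simulated data. In 34 rows of the table, none of them members, RNA depth was not a single number. Of the 1041 gene IDs 1035 matched the gene name table.

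Members, gene lists and tests were chosen with earlier results of these data known. Named were the 10 genes with the most members, the 15 deepest members 1/1 in RNA, the 15 deepest that were not, the leading gene and deepest member of 6 blocks, list genes, and the 10 deepest members scored -3 or lower with ties. Members are not replicates. Every interval counts each call as independent, although neighbouring calls of a block cannot be taken so, and may therefore be too narrow.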

Additional observations from a re-analysis of the deposited data

How the results depend on the processing

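Of 35 alternatives over 8 values, 19 stayed within the exact 95% interval of the main value or, for the number of calls, within 1.5 times it, and 16 moved beyond. The number of homozygous missense calls was 2820 with the missense annotation alone, 2900 with 1/2 calls and 2176 in genes without a heterozygous coding call. The homozygous missense per synonymous ratio was 0.448 at positions with an RNA read, 0.726 with at most 1 call of each class per gene, and, in settings added after seeing the data, 0.554 without Skint genes and 0.525 in genes without a heterozygous coding call. The heterozygous ratio was 0.554 with an RNA read, 0.723 per gene and 0.631 without Olfr, Vmn and Zfp genes. The homozygous ratio was the lower of the pair in each setting run for both except the per-gene count. The share 1/1 in RNA was 98.9% without positions lacking a call and 90.3% with 1 call per gene. With 1 call per gene transitions were 62.6% and BLOSUM62 scores below 0 were 36.3%. Blocks held 94.7% at 2 Mb, 88.0% at 0.5 Mb and 83.5% with 10 or more members. Chromosome 7 held 18.9% with genes counted once and 20.2% without Olfr, Vmn and Zfp genes. The cause of these moves was not tested. No paired analysis was possible because the exome and the RNA were 1 library each. RNA depth limits the genotype comparison to 573 of 2895 members at 20 or more reads, and exome depth is unknown.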

Other observations

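The 233 members outside blocks were in 181 genes. C-to-T changes made up 30.0% of them and 29.0% of members in blocks, with overlapping intervals. At 20 or more RNA reads 54 of 65 outside blocks were 1/1 in RNA, or 83.1% (exact 95% interval 71.7% to 91.2%), against 479 of 508 in blocks, or 94.3% (91.9% to 96.1%). Only 15 members, in 15 genes, had no other missense or synonymous exome call within 1 Mb, a set defined after the data were seen. All had fewer than 20 RNA reads, and 11 had 0. Those with reads were Lys71Thr of Hmmr, a spindle protein, at 8, Tyr711Asp of Phc3, a Polycomb subunit, at 5, Ser575Arg of Fam160b2 at 5 and Val13Ile of Xpnpep2 at 2, each 1/1 in RNA. Among the others were Leu193Pro of Padi3, an epidermal enzyme that converts arginine residues to citrulline, and Leu912Phe of the transcription factor St18.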
